A study of Mus musculus with 16 samples.

Results

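The genes described here are 32 of the 23337 in the raw count table: 23 that rod and cone photoreceptors express and 9 that the pigmented cells of the eye express. They were chosen by name, from the cell types they are known to mark, and all 32 were present in the table and passed the filter on low counts. The tissue was the mouse optic nerve head, the short unmyelinated stretch of the optic nerve behind the eye, which holds ganglion cell axons and astrocytes but no photoreceptor cell bodies. RNA of the right eyes of wild-type C57BL/6 mice was sequenced in 16 libraries, each a pool of 4 nerve heads, 2 from male and 2 from female mice, so that one library is one value and single mice cannot be seen. The 4 groups had 4 libraries each. Microbead mice, labelled 13 weeks old, had polystyrene beads injected into the anterior chamber to block fluid outflow and raise eye pressure, a model of glaucoma, and were examined 4 weeks later. Saline mice, also labelled 13 weeks, had saline injected in the same way and were examined at the same interval. Aged naïve mice were 40 weeks old and young naïve mice 13 weeks old, and neither had an injection.

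Rods and cones turn light into a nerve signal. Light changes an opsin, the opsin activates transducin, transducin activates a phosphodiesterase, and the fall in cyclic GMP closes channels in the outer segment; arrestin, recoverin and the guanylate cyclase activators bring the cell back to rest. The pigment epithelium beneath the retina renews the light-sensitive vitamin A derivative through the visual cycle, and, like the melanocytes of the choroid, makes melanin with tyrosinase and its relatives. All of these cells reach up to the margin of the nerve head. In a bulk sample, fewer cells of a type and less RNA per cell cannot be told apart.

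The members' promoters were searched for motifs of factors known in these cells, and 5 are printed because they stand for the rod (Sag), cone (Gnat2), visual cycle (Rpe65) and melanin (Tyrp1, Dct) genes whose values follow. RefSeq windows of the mouse build GRCm38.p6, the assembly also called mm10, which run 250 bases before to 50 after a gene's start, were matched for 23 of the 32 members. Each is written 5′ to 3′ on the gene's own strand. Capitals mark TAATCC or its reverse complement GGATTA, the core bound by the photoreceptor factor Crx and by its relative Otx2, which acts in pigment epithelium; TGCTGA or its reverse complement TCAGCA, part of the site of the rod factor Nrl; and CATGTG or its reverse complement CACATG, the core of the M-box bound by the pigment cell factor Mitf.
Sag (chr1:87803430-87803729, plus strand): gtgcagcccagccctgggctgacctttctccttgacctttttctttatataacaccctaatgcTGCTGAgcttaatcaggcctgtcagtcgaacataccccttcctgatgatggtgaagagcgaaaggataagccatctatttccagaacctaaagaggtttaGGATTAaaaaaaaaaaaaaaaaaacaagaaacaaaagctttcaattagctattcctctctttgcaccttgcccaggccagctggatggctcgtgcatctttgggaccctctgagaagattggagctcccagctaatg
Gnat2 (chr3:108092816-108093115, plus strand): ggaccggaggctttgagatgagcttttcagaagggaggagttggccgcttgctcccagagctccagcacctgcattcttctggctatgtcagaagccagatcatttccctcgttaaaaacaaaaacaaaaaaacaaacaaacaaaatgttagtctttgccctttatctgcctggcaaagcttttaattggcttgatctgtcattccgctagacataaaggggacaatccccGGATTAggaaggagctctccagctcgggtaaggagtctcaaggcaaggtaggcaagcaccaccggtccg
Rpe65 (chr3:159598931-159599230, plus strand): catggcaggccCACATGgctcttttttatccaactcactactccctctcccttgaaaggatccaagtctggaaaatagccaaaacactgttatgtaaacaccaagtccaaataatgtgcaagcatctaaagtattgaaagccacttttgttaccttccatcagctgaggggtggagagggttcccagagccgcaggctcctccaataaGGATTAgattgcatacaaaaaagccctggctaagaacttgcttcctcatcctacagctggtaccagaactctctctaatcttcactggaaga
Tyrp1 (chr4:80833963-80834262, plus strand): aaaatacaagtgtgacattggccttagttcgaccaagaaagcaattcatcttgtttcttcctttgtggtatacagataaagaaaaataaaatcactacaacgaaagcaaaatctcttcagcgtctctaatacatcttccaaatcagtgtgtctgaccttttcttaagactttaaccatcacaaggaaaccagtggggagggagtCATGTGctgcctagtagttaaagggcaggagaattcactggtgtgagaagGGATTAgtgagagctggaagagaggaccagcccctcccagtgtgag
Dct (chr14:118052197-118052496, minus strand): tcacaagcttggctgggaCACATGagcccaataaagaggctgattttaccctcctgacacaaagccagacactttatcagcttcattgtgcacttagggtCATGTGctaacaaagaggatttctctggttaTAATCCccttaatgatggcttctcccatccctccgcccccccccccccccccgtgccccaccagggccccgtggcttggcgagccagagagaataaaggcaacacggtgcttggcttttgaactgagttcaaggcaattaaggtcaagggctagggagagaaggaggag
The Sag window held a GGATTA with its first base at -87 from the start and a TGCTGA at -187, and the Gnat2 window a GGATTA at -19. The Rpe65 window held CACATG at -239 and GGATTA at -42. Tyrp1 had CATGTG at -46 and GGATTA at 4, and Dct had CACATG at -232, CATGTG at -150 and TAATCC at -119. The motifs did not overlap in these windows. Over the matched members, TAATCC or GGATTA was found in 6 of 16 photoreceptor windows (37.5%) and in 5 of 7 pigment cell windows (71.4%), against 7.06% of all 32851 windows of the same length. CATGTG or CACATG was in 6 of 7 pigment cell windows (85.7%) and in 2 of 16 photoreceptor windows (12.5%), against 14.2% of all windows. TGCTGA or TCAGCA was in 3 of 16 photoreceptor windows (18.8%) and 1 of 7 pigment cell windows (14.3%), a share close to or below the 19.5% of all windows. These are letter matches and not measured sites.

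The library totals ran between 6213789 and 10726122 counts. The paper lists a higher RNA concentration for every aged naïve pool than for every young naïve pool. Those of saline 1, saline 2 and saline 3 were below every microbead pool, and saline 2 and saline 3 were the lowest of all 16. Whether RNA concentration bears on the levels given here was not tested. The labelled tissue showed its own markers in every library: Gfap, the astrocyte filament, was at 2435 to 9832 CPM (counts scaled to a common library size and composition), Aqp4, the astrocyte water channel, at 163 to 307 CPM, and the myelin gene Mbp at 3937 to 10312 CPM. Tests were run with edgeR on 14 libraries, without saline 4 and aged naïve 2, because the comparison tables deposited by the authors leave those out; values in all 16 libraries are printed. Of 14541 genes tested, 26.5% were called (a change of 1.5-fold or more, with p below 0.01 and an adjusted p below 0.05) in aged against young naïve nerve heads, 12.4% in microbead against saline, 10.9% in microbead against aged naïve, and 0.00688% in saline against young naïve. With all 16 libraries the share was 19.7% in aged against young and 0% in microbead against saline, where 2772 of 14417 genes had an unadjusted p under 0.05. Microbead and saline share their saline libraries with saline and young, and microbead and aged share their aged libraries with aged and young, so these comparisons are not independent of each other.

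Photoreceptor RNA was present in every library, at levels that differed more between libraries of one group than between groups. Summed over the 23 photoreceptor members, microbead libraries 1 to 4 held 221, 163, 91.5 and 999.8 CPM. The saline libraries held 367, 6166, 72.6 and 219 CPM, the aged naïve libraries 1973, 499.5, 349.8 and 248 CPM, and the young naïve libraries 862, 4549.9, 215 and 102 CPM. One library stood above its group in each case: microbead 4, saline 2, aged 1 and young 2. The highest library exceeded the lowest of its group 84.9-fold in saline, 44.6-fold in young naïve, 10.9-fold in microbead and 7.95-fold in aged naïve nerve heads, and the group ranges overlapped. Group means were 369 ± 424 CPM in microbead, 1706 ± 2976 CPM in saline, 767 ± 810.02 CPM in aged naïve and 1432 ± 2105 CPM in young naïve nerve heads (SD, n = 4 each), so that in every group the SD was above the mean. As a share of all counts, the photoreceptor members made up between 0.00689% and 0.598% of a library. The lists of other retinal cells varied less. Bipolar cell genes summed to 51.7 to 66.1 CPM in microbead, 53.1 to 88.9 in saline, 43.4 to 57.9 in aged and 55.2 to 136 in young nerve heads, with the highest value in young 2, and 4 of the 10 had a count in every library. Amacrine and horizontal cell genes summed to 117 to 132, 74.9 to 127, 81.2 to 161 and 89.9 to 120.2 CPM in microbead, saline, aged and young nerve heads.

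**Figure D1:**
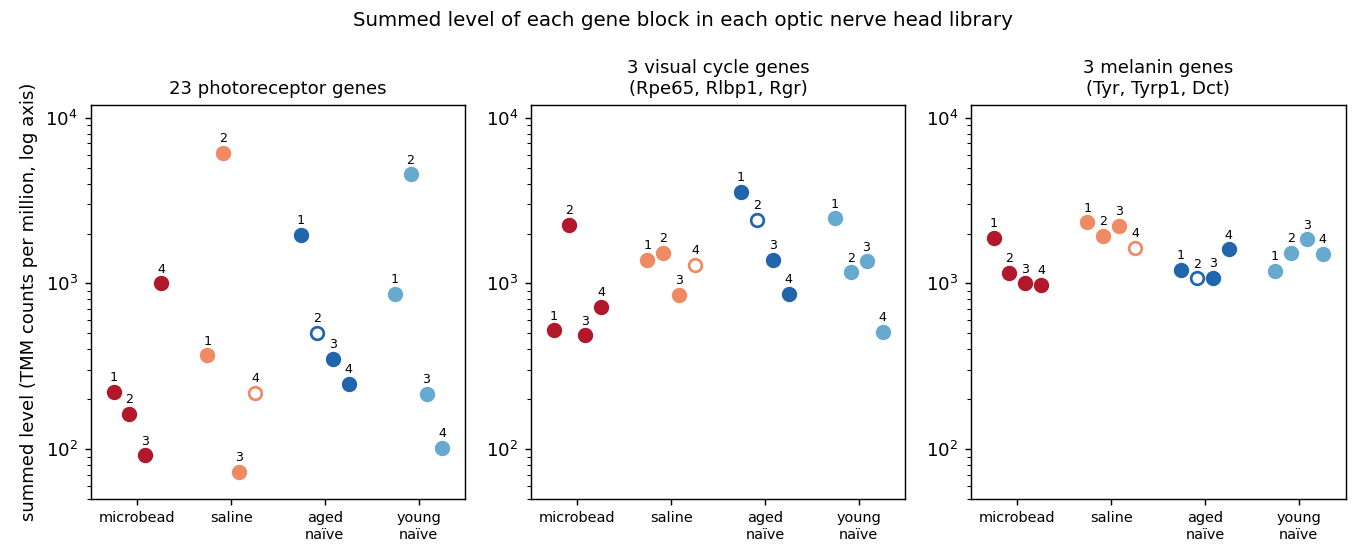
Summed CPM per library, log scale, of the photoreceptor, visual cycle and melanin members, by group; each circle is one library and open circles are the 2 libraries left out of the 14. The photoreceptor circles span 72.6 to 6166 CPM, while the melanin circles lie between 974 and 2334 CPM.

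Rod transduction genes stood out in the libraries with the most photoreceptor RNA. Gnat1, the alpha subunit of rod transducin, was at 50.7, 26.4, 10.8 and 332 CPM in the microbead libraries and at 86.4, 2233, 2.41 and 50.9 CPM in the saline libraries. It was at 519, 87.5, 87.4 and 52.1 CPM in aged naïve and at 264, 1376, 41.4 and 11.4 CPM in young naïve libraries. The same 4 libraries as for the sum were highest, and the groups overlapped. In saline 2 and saline 3, which share a treatment, Gnat1 had 22225 and 19 counts, a ratio of 927.5 (95% counting interval 594 to 1541, which covers counting error only). Gngt1, the transducin gamma subunit, ranged over 0.760 to 363 CPM across the 16 libraries, Pde6g, the inhibitory subunit of rod phosphodiesterase, over 0.634 to 489 CPM, and Pde6b, a catalytic subunit of the same enzyme, over 0.127 to 183 CPM. Pde6a, the other catalytic subunit, reached 43.2 CPM and Cnga1, a subunit of the cyclic GMP-gated channel, 65.4 CPM, both in young 2. Summed over the 9 rod members, saline 2 was 603.7-fold above saline 3, and the highest library exceeded the lowest 137-fold in young, 27.3-fold in microbead and 10.2-fold in aged naïve nerve heads.

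The genes that end the light response moved with them. Sag, rod arrestin, was at 21.3, 9.94, 4.23 and 118 CPM in microbead, 32.9, 713, 2.41 and 19.99 CPM in saline, 178, 39.5, 26.0 and 17.6 CPM in aged naïve and 75.4, 548, 20.3 and 3.502 CPM in young naïve libraries. Its order of libraries was close to that of Gnat1, with r = 0.989 on the log2 scale over the 16 libraries. Pdc, phosducin, which binds transducin subunits, spanned 1.27 to 351 CPM; Rcvrn, recoverin, 0.253 to 171 CPM; and Guca1a and Guca1b, which switch on guanylate cyclase, 1.52 to 86.3 and 0.253 to 208 CPM. All 4 were highest in saline 2.

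Among the structural genes, Prph2 and Rom1, both of which build the rim of the outer segment discs, behaved differently. Prph2 was at 11.96, 6.98, 2.92 and 77.4 CPM in microbead, 19.2, 434, 0.380 and 14.2 CPM in saline, 169, 26.4, 22.0 and 18.8 CPM in aged naïve and 69.9, 317, 10.1 and 1.81 CPM in young naïve libraries. Rom1 was at 54.9, 76.6, 50.5 and 112 CPM in microbead, 75.8, 502, 51.6 and 70.2 CPM in saline, 241, 135, 82.1 and 71.9 CPM in aged naïve and 132, 381, 77.6 and 61.4 CPM in young naïve libraries. Both were highest in the same libraries, but Rom1 did not fall below 50.5 CPM in any. The ratio of saline 2 to saline 3 was 9.74 for Rom1 (counting interval 8.80 to 10.8). Rom1 was therefore 71.0% of the photoreceptor counts in saline 3 and 60.2% in young 4, where the sum was low, against 8.15% in saline 2 and 8.38% in young 2, where Gnat1 was 36.2% and 30.2%. Its exons lie 146 bases from B3gat3 and share no base with another gene in the table. Rp1, which organises the outer segment axoneme, spanned 0.807 to 73.1 CPM.

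The transcription factors that set photoreceptor fate were low and followed the same libraries. Nrl, which directs rod fate, was at 8.34 CPM in microbead 4, 17.1 in saline 2, 21.3 in aged 1 and 19.4 in young 2, between 0 and 5.15 CPM in the other 12 libraries, and had 0 counts in microbead 3, saline 3 and young 4. At a floor of 3 counts it was at least 44.9-fold higher in saline 2 than in saline 3. Crx, which acts in rods and cones, spanned 0.202 to 42.9 CPM and Nr2e3, which represses cone genes in rods, 0.242 to 44.0 CPM, and both were highest in saline 2.

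Cone genes were high and low in nearly the same libraries as the rod genes. Opn1sw, the short-wave cone opsin, was at 6.96, 6.56, 4.03 and 27.8 CPM in microbead, 9.87, 126, 4.82 and 7.81 CPM in saline, 61.6, 18.3, 12.5 and 11.4 CPM in aged naïve and 18.0, 96.1, 5.22 and 6.28 CPM in young naïve libraries. Opn1sw shares 5 exon bases, 0.207% of its 2410, with Calu on the other strand, and the library kit does not record strand. Gnat2, cone transducin, was at 2.37, 1.90, 1.21 and 3.32 CPM in microbead, 3.47, 17.0, 3.67 and 3.43 CPM in saline, 4.88, 2.47, 2.70 and 0.723 CPM in aged naïve and 3.03, 14.9, 3.40 and 1.21 CPM in young naïve libraries. It thus separated saline 2 from saline 3 only 4.62-fold (counting interval 3.10 to 7.11), and its r with Gnat1 was 0.714. Opn1mw, Pde6c, Pde6h and Arr3, the other cone members, reached 15.2, 5.53, 19.3 and 7.84 CPM, all in saline 2.

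The visual cycle genes of the pigment epithelium varied less and ranked the libraries in another order. Rpe65, the enzyme that forms 11-cis vitamin A, was at 72.0, 324, 63.8 and 92.9 CPM in microbead, 188, 179.8, 102 and 192 CPM in saline, 669, 417, 255 and 180.4 CPM in aged naïve and 296, 148, 159.8 and 46.7 CPM in young naïve libraries. Its highest libraries were aged 1 and 2, microbead 2 and young 1; saline 2, which held the most photoreceptor RNA, was not among them. Rgr, an opsin of pigment epithelium and Müller glia, was at 278, 1519, 249 and 409.9 CPM in microbead, 874, 1060.1, 545 and 808 CPM in saline, 2476, 1680.04, 899.5 and 532 CPM in aged naïve and 1742, 708, 868 and 268 CPM in young naïve libraries. Rlbp1, a retinaldehyde carrier of pigment epithelium and Müller glia, had a narrower span, 146 to 439 CPM. Ttr, transthyretin, which carries thyroid hormone and vitamin A and is also made by the choroid plexus, spanned 302 to 2259.9 CPM. Best1, an anion channel of the pigment epithelium, lay at 2.32 to 5.49 CPM, and its transcript lies 80 bases from Fth1, which had 4289 to 11129 CPM.

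Melanin genes varied least of the 3 sums. Tyrp1, which stabilises tyrosinase, was at 963, 569, 469 and 453 CPM in microbead, 1018, 851, 1101.5 and 799.99 CPM in saline, 506, 237, 459 and 812 CPM in aged naïve and 483, 655, 812 and 727 CPM in young naïve libraries. Dct, dopachrome tautomerase, was at 865, 535, 499.6 and 484 CPM in microbead, 1255, 1028, 1062 and 794 CPM in saline, 644, 804, 576 and 724 CPM in aged naïve and 665, 831, 982 and 741 CPM in young naïve libraries. Only microbead 1 lay above any saline library in Dct, and that was saline 4. Tyr, tyrosinase itself, spanned 30.5 to 66.1 CPM. Rax, a homeobox factor of the developing retina that Müller glia also make, was at 14.6, 10.2, 11.1 and 12.3 CPM in microbead, 25.2, 33.9, 19.5 and 16.1 CPM in saline, 14.2, 7.42, 12.5 and 9.11 CPM in aged naïve and 12.4, 36.6, 27.2 and 20.3 CPM in young naïve libraries, and the microbead libraries were all below all saline libraries. Per kilobase of transcript, Ttr and Rgr were highest of the members, with medians of 801 and 505 CPM per kb, and Gnat1 had a median of 31.4 CPM per kb and a maximum of 1011.

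**Figure D2:**
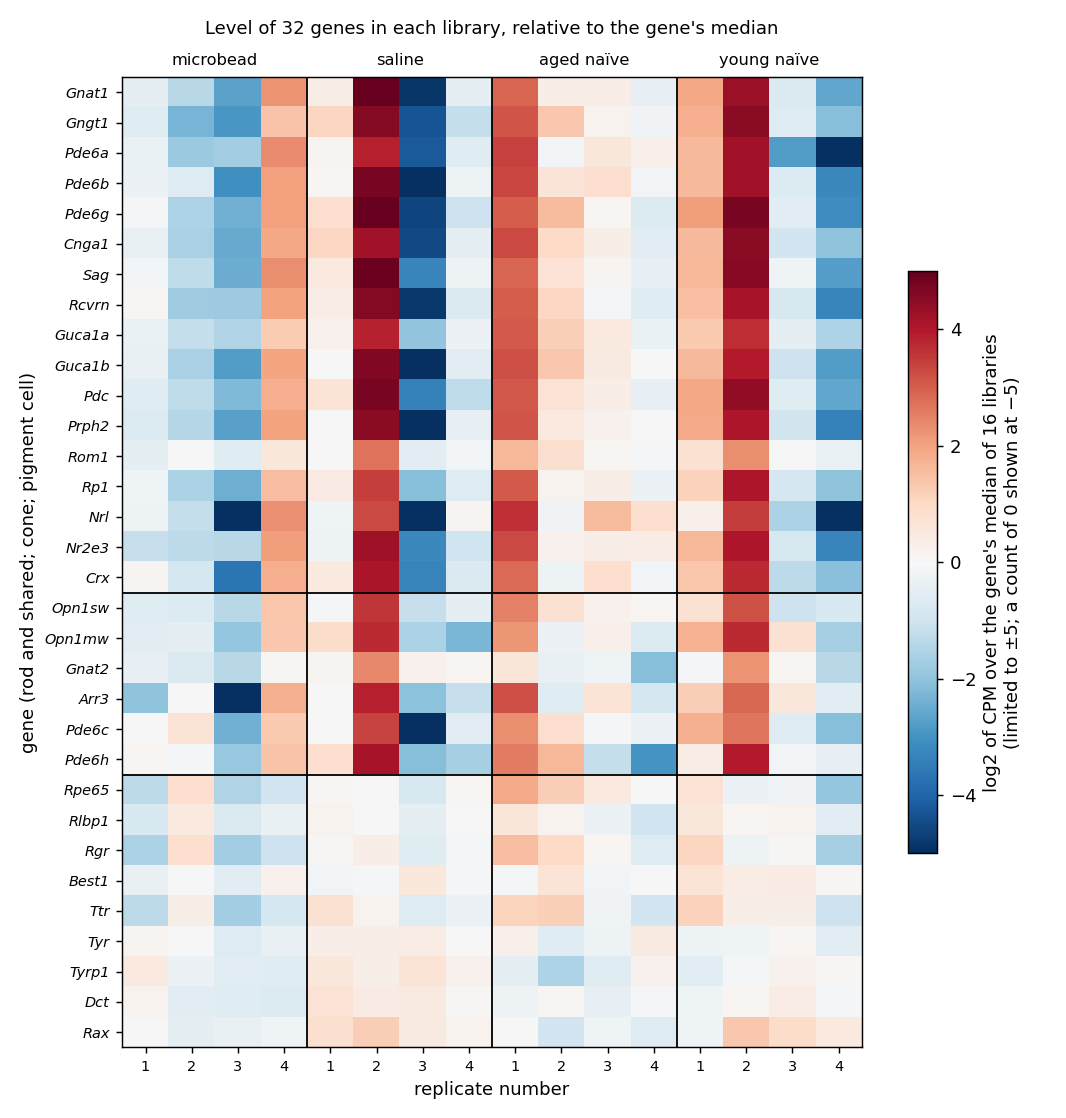
Level of each member in each library, as log2 of CPM over the member's median, with members as rows and libraries as columns by group. The photoreceptor rows are high in saline 2, young 2, aged 1 and microbead 4 together, and most pigment cell rows do not share this pattern. Rax is an exception in part, as it is highest of its group in saline 2, young 2 and aged 1. Rpe65, Rlbp1 and Rgr are also highest in aged 1, and Rgr is highest of the saline libraries in saline 2.

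The photoreceptor members and the visual cycle members Rpe65, Rlbp1 and Rgr each moved together, and the melanin members Tyr, Tyrp1 and Dct did so less closely. This is described here by Pearson's r of log2 CPM over the 16 libraries. All genes measured in a library share its depth and tissue composition, so their levels are not independent. Of the 253 pairs of photoreceptor members, r was 0.641 to 0.995 with a median of 0.944, and the median was 0.952 with group means removed. Rod and cone genes were in the same set. Among the visual cycle members the median r was 0.878, and 0.965 with group means removed. Between photoreceptor and visual cycle members the median r was 0.45, or 0.42 with group means removed, and between photoreceptor and melanin members 0.05. Rpe65 with Rgr reached 0.960 and with Ttr 0.842, while Gnat1 with Rpe65 was 0.425 and with Dct 0.01. Among the melanin members, r was 0.551 to 0.718, but with group means removed its median was 0.444, close to the value between photoreceptor and visual cycle members. Best1, Ttr and Rax were placed in none of these sets. The r was 0.636 between Dct and Rax. Among genes outside the 32, the 10 whose levels were most like the photoreceptor sum were Drd4 (0.988), a dopamine receptor, Rtbdn (0.985), a retinal riboflavin-binding protein, Mpp4 (0.984), Tulp1 (0.984), Cplx4 (0.983), Cngb1 (0.981), the other subunit of the rod channel, Impg1 (0.9795), Aipl1 (0.978), Ankrd33 (0.972) and 2610034M16Rik (0.967). Those most like the pigment cell sum were Tmem98 (0.948), Car14 (0.945), Pon1 (0.939), Tmem27 (0.930), Arl6ip1 (0.9235), Kcnj13 (0.916), Sostdc1 (0.916), Rrh (0.9075), Fap (0.901) and Rdh5 (0.8998). Genes of the choroid plexus, a tissue that also makes Ttr, summed to 29.1 to 193 CPM. Their highest value was in aged 1, the library with the highest pigment cell sum of 6914 CPM. This list is not separate from pigment cells, as it holds Sostdc1, named above, and Otx2, which is also among the further pigment cell genes counted below. The part of choroid plexus in Ttr was not tested.

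Injury by microbeads was asked about through the contrast with saline. None of the 23 photoreceptor members was called, against 12.4% of all genes tested, and none had an unadjusted p under 0.05. All 23 were lower in microbead, with a median log2 fold change of -2.37 (range -3.23 to -1.24), against -0.01 over all genes. The standard errors were large, at a median of 1.68, against about 0.147 over all genes, so folds of this size were within the spread between libraries. The standard errors of the 23 ranked between 1 and 174 of 14541, and that of Gnat1 was the largest. Gnat1 was at -2.88 ± 1.99 (log2 fold change ± SE) with adjusted p = 0.303, and Sag at -2.69 ± 1.87 with adjusted p = 0.304, both by edgeR's quasi-likelihood test with Benjamini-Hochberg adjustment over all genes tested. Without saline 2, 21 of 23 were above 0 and the median was 0.82; without microbead 4, the median was -3.64.

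Of the pigment cell members, Dct and Rax fell in microbead against saline and were called, 2 of 9 against 12.4% of all genes tested, and the others were not. Dct was at -0.90 ± 0.19 (adjusted p = 0.00239, edgeR quasi-likelihood test) and Rax at -1.13 ± 0.30 (adjusted p = 0.0112). The values of Tyrp1 and Tyr are given because they make melanin like Dct, a choice made after they were seen. Tyrp1 was at -0.69 ± 0.29 (adjusted p = 0.0902) and Tyr at -0.52 ± 0.19 (adjusted p = 0.0482), whose unadjusted p by edgeR's quasi-likelihood test, 0.0162, was above 0.01. Rpe65 was at -0.18 ± 0.74, Rlbp1 at -0.17 ± 0.43 and Ttr at -0.90 ± 0.66, and none was called. With all 16 libraries Dct was at -0.80 and Rax at -0.98, both with adjusted p = 0.206, and neither was called. Without saline 2, Rax was at -0.90 with adjusted p = 0.0594. Microbead 3 and 4 carry another number in their titles than saline 1 to 4; within the number they share, Dct was at -0.67 (adjusted p = 0.0531). What the number stands for is not given in the sources used here.

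Ageing was asked about by aged against young naïve nerve heads. None of the 23 photoreceptor members was called, against 26.5% of all genes, and none had an unadjusted p under 0.05. Their median was -0.48 with 21 below 0, and without young 2 all 23 were above 0, with a median of 1.37; without aged 1 it was -2.03. Gnat1 was at -0.94 ± 1.98 (adjusted p = 0.727, edgeR) and Sag at -1.13 ± 1.88 (adjusted p = 0.655). Among the pigment cell members 1 of 9 was called, against the same 26.5%: Rax at -1.01 ± 0.31 (adjusted p = 0.0169). The aged and young libraries of Rax overlapped, since aged 1 was at 14.2 CPM and young 1 at 12.4. With 16 libraries it was at -1.16 and stayed called (adjusted p = 0.00679). Within the shared title number its adjusted p was 0.214. Rpe65 was at 1.18 ± 0.73 and Ttr at -0.12 ± 0.67, with adjusted p = 0.213 and 0.898 by edgeR. Rlbp1 was at -0.20 ± 0.43 and Dct at -0.31 ± 0.19, and neither was called.

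Microbead against aged naïve nerve heads set the injury beside age. None of the 32 members was called, against 10.9% of all genes. The photoreceptor median was -1.43 with all 23 below 0, at 0.25 with 17 above 0 without aged 1, and at -2.93 without microbead 4. Gnat1 was at -1.06 ± 1.94 and Sag at -0.93 ± 1.86. Dct was at -0.12 ± 0.19, Rlbp1 at -0.18 ± 0.43 and Ttr at -0.93 ± 0.66. Rax was at 0.00. Rpe65 was at -1.41 ± 0.74 (adjusted p = 0.194, edgeR), and without microbead 2 it was at -2.27 ± 0.68 and called (adjusted p = 0.0387). Saline against young naïve nerve heads asked about the injection itself. No number in the titles is shared between the saline and the young libraries, so whatever that number stands for and the injection cannot be told apart here. None of the 32 was called, against 0.00688% of all genes, and 22 of 23 photoreceptor members were above 0 with a median of 0.53. Gnat1 was at 0.87 ± 1.91, Sag at 0.63 ± 1.79, Rpe65 at -0.05 ± 0.74, Rlbp1 at -0.22 ± 0.43, Ttr at -0.15 ± 0.67, Dct at 0.47 ± 0.19 (adjusted p = 0.340, edgeR) and Rax at 0.12. Without saline 2 all 23 photoreceptor members were below 0, with a median of -2.69, and without young 2 the median was 2.47.

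**Figure D3:**
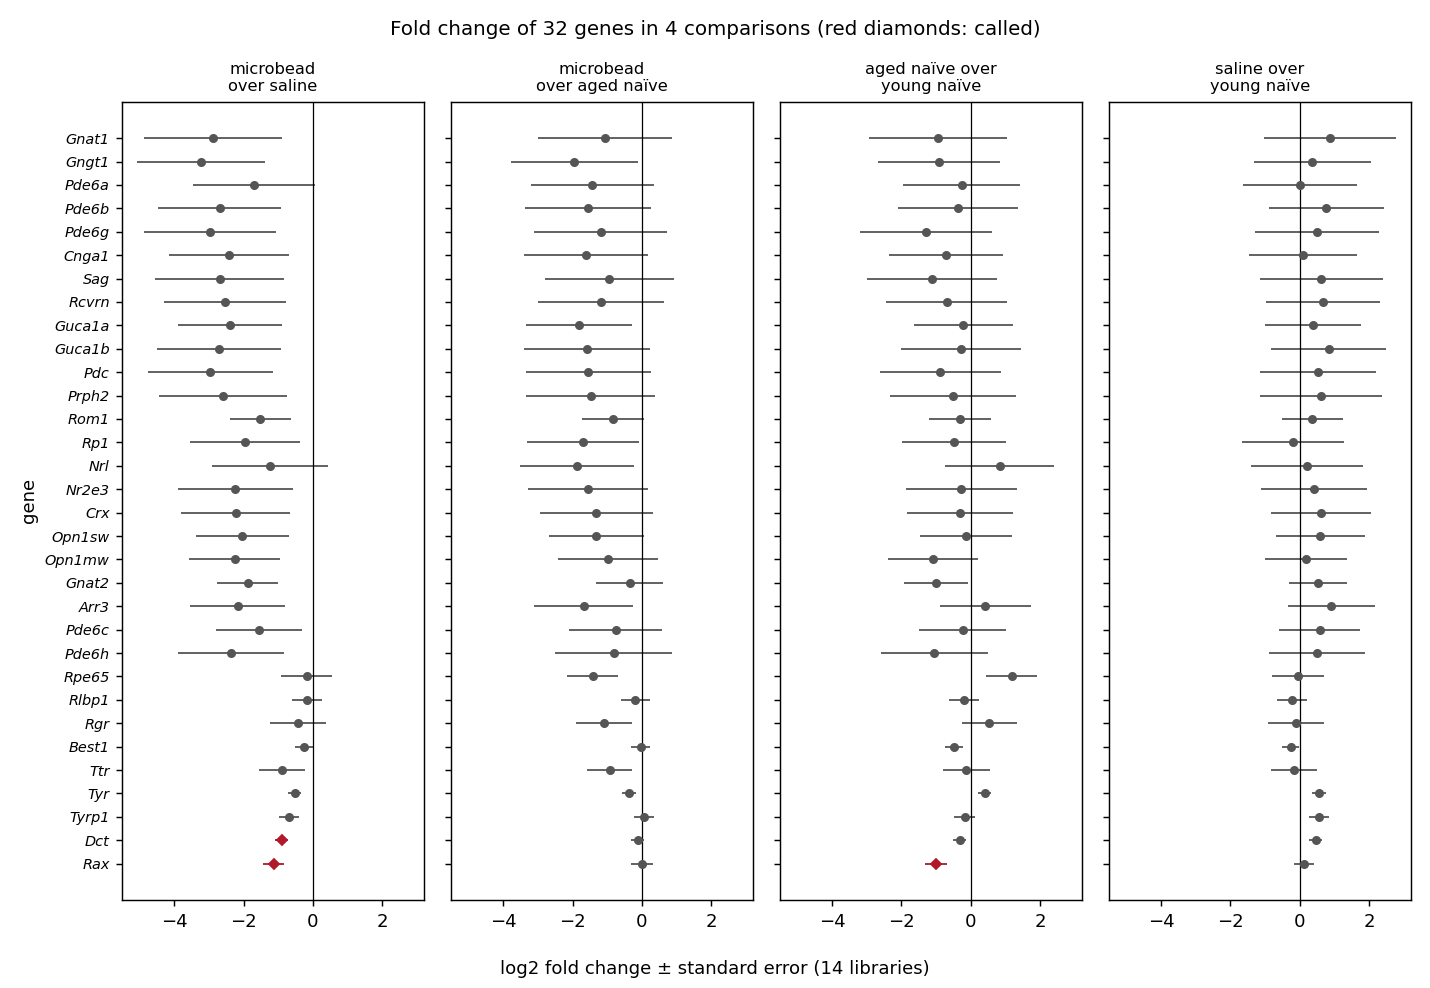
Log2 fold change with standard error of each member in the 4 comparisons, edgeR on 14 libraries, with red diamonds where called and grey circles elsewhere. Dct and Rax are diamonds in microbead over saline and Rax is one in aged over young, and no photoreceptor member is; their bars of ± 1 SE are the widest.

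**Figure D4:**
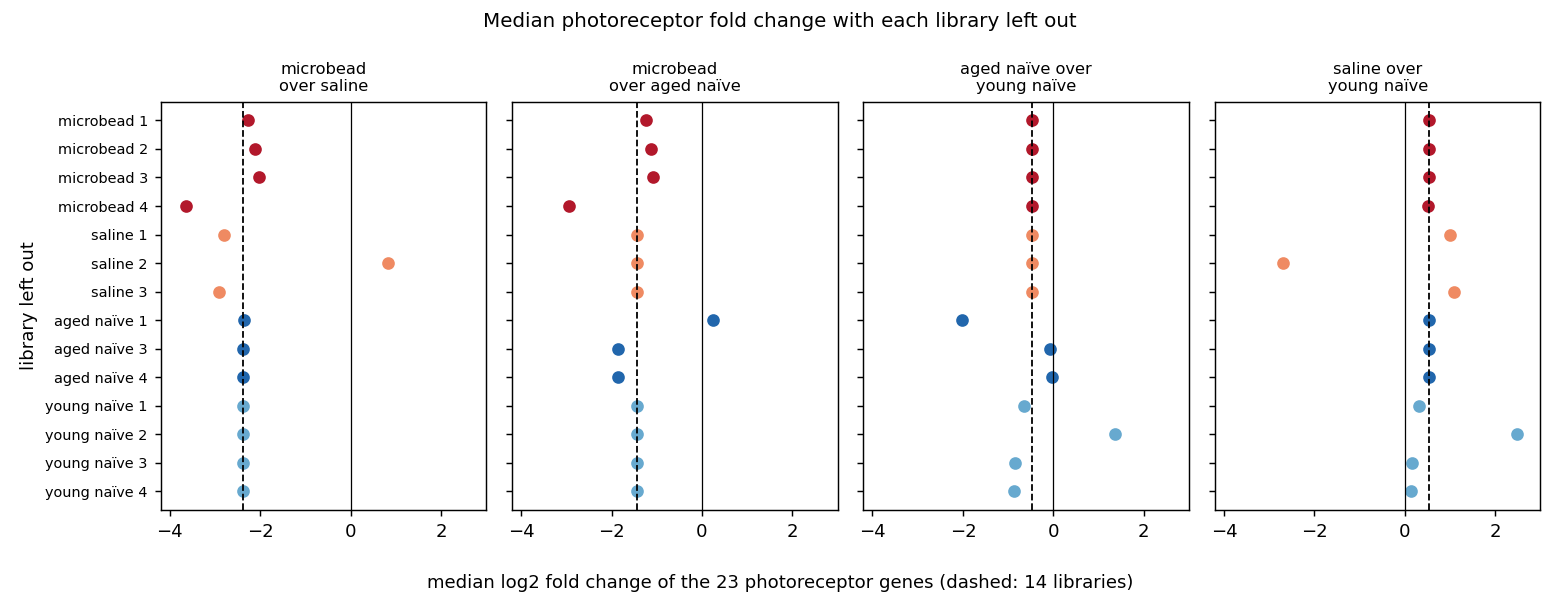
Median log2 fold change of the 23 photoreceptor members with each library left out in turn, by comparison. It crosses 0 in all 4 comparisons when the library with the most photoreceptor RNA is left out.

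Further genes of each cell type, from lists of the same kind, were also counted, and each count stands against 26.5% of all genes called in aged against young, 12.4% in microbead against saline and 10.9% in microbead against aged. No list was tested against those shares. With all 16 libraries no gene of any list was called in microbead against saline, and Slc6a9 and Crygs were not called in aged against young. Of 30 other photoreceptor genes, 28 were tested and 0 were called in any of the 4 comparisons; their sum was at 79.2 to 394 CPM in microbead, 93.4 to 1502 in saline, 140 to 752 in aged and 88.6 to 1250 CPM in young nerve heads. Among its most abundant genes, Rbp3 reached 229.7 CPM, Reep6 232 CPM and Unc119 256 CPM, all in saline 2. Of 20 further pigment cell genes, 19 were tested. In microbead against saline 5 fell, and they are named because they were called: Gpr143, a melanosome receptor (-0.998, adjusted p = 0.000345), Pmel, which builds melanosome fibres (-0.92, adjusted p = 0.00744), Mlana, a melanosome protein (-0.95, adjusted p = 0.0110), Slc24a5, a melanosome ion exchanger (-0.80, adjusted p = 0.0108), and Kcnj13, a potassium channel of pigment epithelium (-0.91, adjusted p = 0.0176), all by edgeR. None of the 5 was called with 16 libraries. In aged against young, Mitf, the pigment cell factor, was at 1.05 and higher (adjusted p = 4.07e-05), and Bmp4 (-0.80, adjusted p = 0.00188) and Ptgds (-1.32, adjusted p = 0.0105) were lower. Ptgds, which meninges and oligodendrocytes also make, was by far the most abundant of the list, at 4963 to 39371 CPM, with its highest value in aged 2, a library left out of the 14. In microbead against aged, Mitf at -1.02 was lower and Ptgds at 1.14 higher. Neither Ptgds call held with all 16 libraries, where edgeR's adjusted p was 0.683 in microbead against aged and 0.432 in aged against young. In amacrine and horizontal cell genes, 6 of 10 tested, Slc6a9 was higher in aged against young and Onecut2 higher in microbead against saline. Of the 9 genes of the Müller glia list, 4 were lower and 1 higher in aged against young. In microbead against aged, 4 were higher and 1 lower. Of 10 retinal ganglion cell genes tested, 4 were lower in aged against young, 2 were lower in microbead against saline and 2 were higher in microbead against aged. Bipolar and choroid plexus genes had 0 calls in any comparison, at 8 of 10 and 9 of 9 tested. Of the lens list, 2 of 12 were tested and Crygs was lower in aged against young and in microbead against saline, and of the cornea list 3 of 9 were tested and 1 was lower in aged against young. Of 7 astrocyte genes, 1 was higher and 2 lower in aged against young, 1 was higher and 1 lower in microbead against saline, and 2 were higher in microbead against aged. Oligodendrocyte genes had 2 of 6 lower in aged against young and 1 of 6 higher in microbead against aged, and meningeal genes 1 of 6 lower in both aged against young and microbead against saline and 2 of 6 higher in microbead against aged. The summed genes of the Müller glia list were at 8200.1 to 10346 CPM in microbead and 9295 to 10291 in saline libraries. They were at 5059.7 to 5789.6 CPM in aged and 9800.5 to 10953 CPM in young libraries. The astrocyte list was also lower in aged libraries, at 6017 to 7342 CPM, than in young ones, at 9593 to 11488 CPM. Whether the Müller glia list tells these cells from the astrocytes of the nerve head was not tested. The part of Müller glia in the levels of Rgr, Rlbp1 and Rax, which these cells also make, was not tested either.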

How the data were processed

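Unmyelinated optic nerve heads were sequenced from 16 pools of 4 nerves, 4 pools per group. The authors aligned the reads with STAR 2.3.0 to mm10 and counted them per gene with featureCounts (its version is not given in the sources used here). A deposited table of raw counts, which holds 23337 genes (19129 with a count), was the only file analysed; the authors' comparison tables, with normalized values, ratios, log2 values and p-values, were used only for which libraries they kept. SMARTer libraries do not record strand.

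Analysis used R 4.3.3 with edgeR 4.0.16: filterByExpr (minimum count 10), TMM scaling, robust quasi-likelihood tests in one model of 4 groups over 14 libraries, and Benjamini-Hochberg adjustment. Called genes changed 1.5-fold or more, with p below 0.01 and an adjusted p below 0.05. Levels are CPM over all 16 libraries. For correlations, 2 counts were added before log2 CPM was taken. On simulated data for microbead against saline with 14541 genes, the test called 19 of 63 genes set to a fold of 1.5, 51 of 70 set to 2 and 63 of 67 set to 4, along with 9 of 14341 left unchanged. The changed genes were drawn from all genes tested, whose median standard error was 0.147. That of the photoreceptor members was 1.68, so these shares do not apply to them. Totals of 6213789 to 10726122 counts limit the precision of the low genes, and counting intervals (95%) and the floor of 3 counts for a 0 cover counting error only.

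Every member is named with its level. Fold changes are given for members called and for Gnat1, Sag, Rpe65, Rlbp1, Ttr and Dct; other values were chosen after they were seen. The members and lists were chosen with earlier results of these data known. Alternatives were DESeq2 1.42.0 and its size factors, filters, no fold minimum, all 16 libraries, only the groups compared, a replicate block, libraries of one title number, a gene length correction (loess span 0.5) and leaving out each library. The pools are separate groups of mice, as the methods state. Some results of the lists are not reported here.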

Additional observations from a re-analysis of the deposited data

Results flagged for a closer look

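A library was far from the other 3 of its group, by a gap larger than Dixon's 95% limit, in 70 of the values of members and their sums. Over the 144 groups of 4 libraries examined, a rate of 1 in 20 would give about 7.2 such values if CPM were normally distributed. The limit was applied to CPM and not to log2 CPM, and the photoreceptor levels were skewed. The 7.2 is therefore no measure of what chance would give here. The members move together, so these values are not independent. Of the 70, 26 were in saline, 14 in microbead, 15 in aged naïve and 15 in young naïve libraries, and most were the highest value of the group, in the library with the most photoreceptor RNA.

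Microbead 4 was far above the other microbead libraries in CPM of Gnat1 (332.1), Pde6a (12.03), Cnga1 (11.09), Sag (118.1), Guca1b (33.17), Pdc (46.34), Prph2 (77.42), Nr2e3 (9.95) and Opn1sw (27.77) and in the photoreceptor sum (999.8). Microbead 2 was far above them in Rpe65 (324.3), Rgr (1519) and the visual cycle sum (2243), and microbead 1 in Dct (865.2).

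Saline 2 was far above the other saline libraries in all 23 photoreceptor members. The rod values were Gnat1 2233, Gngt1 362.9, Pde6a 34.56, Pde6b 182.9, Pde6g 489, Cnga1 53.85, Sag 713.4, Nrl 17.08 and Nr2e3 44.01 CPM. The values of genes of both cell types were Rcvrn 171.4, Guca1a 86.31, Guca1b 208.2, Pdc 351, Prph2 433.8, Rom1 502.3, Rp1 48.43 and Crx 42.9 CPM. The cone values were Opn1sw 126, Opn1mw 15.17, Gnat2 16.98, Arr3 7.837, Pde6c 5.526 and Pde6h 19.29 CPM, and the sum was 6166 CPM. Saline 3 was far below the others in Rpe65 (102.4 CPM) and far above them in Best1 (4.942 CPM).

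Aged naïve 1 was far above the other aged libraries in CPM of Gnat1 (519), Pde6a (25.21), Pde6b (68.51), Cnga1 (28.66), Sag (177.7), Pdc (113.6), Prph2 (168.5), Rp1 (36.87), Nr2e3 (23.07), Crx (18.2), Opn1sw (61.61), Opn1mw (5.233), Arr3 (4.995) and the photoreceptor sum (1973), and aged naïve 2 in Best1 (5.418). Young naïve 2 was far above the other young libraries in CPM of Gngt1 (345.2), Pde6a (43.15), Pde6b (124.8), Pde6g (415), Cnga1 (65.41), Sag (548.2), Rcvrn (126.3), Guca1a (78.17), Pdc (284), Rp1 (73.09), Nrl (19.43), Opn1sw (96.14), Gnat2 (14.91), Pde6h (17.51) and the photoreceptor sum (4550).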

How the results depend on the processing

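No photoreceptor member was called in any of the 4 comparisons under any alternative tried (24, 24, 23 and 23 alternatives). Without a minimum fold change, the genes called were 6196 in aged against young, 4372 in microbead against saline, 3517 in microbead against aged and 3 in saline against young. With all 16 libraries, 0 genes were called in microbead against saline and 0 in saline against young, 0 pigment cell members in microbead against saline, and the log2 fold changes were 0.18 for Ttr in aged against young and 0.024 for Rpe65 in saline against young. With the gene length trend removed, 968 genes were called in microbead against saline, 0 in saline against young and 0 pigment cell members in aged against young, and Ttr was at 0.13 in aged against young. In saline against young, 3 genes were called with DESeq2 size factors, 7 without a filter on low counts, 59 with DESeq2 and 0 with only the groups compared, which also left 0 pigment cell members in aged against young.

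Within one title number, 0 pigment cell members were called in aged against young and 1 in microbead against saline. Rlbp1 was then at 0.10 and Ttr at 0.24 in aged against young, and Rpe65 at 0.35 and Rlbp1 at 0.084 in microbead against saline. Replicate numbers are shared between groups, but the correlations of same-numbered libraries were -0.227 to 0.542 over 12 pairs and did not show that a number pairs libraries. With the replicate number as a block, 0 pigment cell members were called in aged against young. In aged against young, Gnat1 was then at 1.10 and Sag at 0.82. In microbead against saline Rpe65 was then at 0.052 and Rlbp1 at 0.023, and in saline against young Gnat1 was at -0.35 and Sag at -0.19. The cause of these changes was not tested.

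With each library left out in turn, 0 to 1 pigment cell members were called in aged against young, 1 to 4 in microbead against saline and 0 to 1 in microbead against aged. The genes called ran over 997 (without aged 4) to 1726 in microbead against aged and 0 to 90 (without saline 1) in saline against young. In aged against young, the log2 fold change ran over -2.60 to 1.06 for Gnat1, -2.88 to 1.16 for Sag, -0.72 to 0.10 for Rlbp1 and -0.89 to 0.27 for Ttr. In microbead against saline it ran over -4.74 to 1.25 for Gnat1, -4.44 to 1.15 for Sag and -1.04 to 0.058 for Rpe65. In microbead against aged it ran over -2.93 to 0.60 for Gnat1, -2.69 to 0.82 for Sag and -0.54 to 0.34 for Rlbp1. In saline against young it ran over -3.26 to 2.88 for Gnat1, -3.20 to 2.92 for Sag, -0.36 to 0.41 for Rpe65 and -0.54 to 0.24 for Ttr.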
